A study of Mus musculus with 36 samples.

Results

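The genes described here are 7 antagonists of bone morphogenetic proteins (BMPs) and activin: Chrd (chordin), Nog (noggin), Grem1 (gremlin 1), Fst (follistatin), Fstl1 (follistatin-like 1), Bmp3 and Bambi. They were taken by name, as every probe that carries the symbol of a member, which gave 1 probe each and 7 of the 30869 gene symbols in the table. The probes are ILMN_2765047 (Chrd), ILMN_2746870 (Nog), ILMN_1228522 (Grem1), ILMN_1228958 (Fst), ILMN_2734683 (Fstl1), ILMN_1235433 (Bmp3) and ILMN_2774722 (Bambi). Of these, 5 entered the tests.

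Pieces were microdissected from MF1 mouse embryos, and their amplified RNA was hybridised to 36 arrays of the Illumina type MouseWG-6 v2.0, 6 to a BeadChip. The labels name no transgene, mutation or treatment. E7.5 embryos gave an anterior (A, 3 arrays), a posterior (P, 2) and a proximal posterior (PP, 2) region. E8.5 embryos of 2 to 5 somites gave the rostral node (RN, 2), node-streak border (NSB, 3), caudal lateral epiblast (CLE, 3), and the rostral and caudal primitive streak (St1 and St5, 2 each). The chordoneural hinge of the tail bud (CNH) came from E9.5 (22 to 25 somites), E10.5 (32 to 35), E11.5 (40 to 45), E12.5 (50 to 55) and E13.5 (60 to 63), with 3 arrays at E11.5 and 2 at each other stage. Tissue posterior to it (P-CNH) came from E9.5, E10.5 and E11.5, with 2 arrays each. Every array held a pool of 6 to 74 pieces, so each value is an average over embryos and over the cell types of that piece, and the spread between arrays is one between pools. In such bulk RNA, fewer cells of a type and less RNA per cell cannot be told apart.

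Chordin, noggin and gremlin are secreted proteins that bind BMPs and keep them from their receptors. Follistatin binds activin most tightly and BMPs less so, BMP3 is a ligand of the same family that dampens activin and BMP signals, and BAMBI is a membrane protein that resembles a type I receptor without its kinase. In the gastrulating mouse embryo the node and its notochord are known sources of chordin and noggin, while Bmp4 is made at the caudal end of the streak.

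The labels assign the arrays to 3 batches of 12. Batch 1 held RN, St1, St5, both regions of E10.5 and NSB replicates 1 and 2, and only NSB replicate 3, in batch 3, tied it to the others. The arrays of batch 1 detected 15481 to 16256 probes, against 11062 to 15388 in batch 2 and 10814 to 16241 in batch 3. The median intensity of detected probes over that of undetected probes was 7.82 to 10.1 in batch 1, 2.28 to 11.3 in batch 2 and 2.33 to 15.1 in batch 3. After the fit, the median root mean square residual of the tested probes was 0.1 log2 units in batch 1, 0.27 in batch 2 and 0.32 in batch 3. Levels below are log2 normalised intensities of single probes, so those of the antagonists are compared between regions and not between genes, and a bright probe of a marker list is named only to say what carries a sum of intensities. A probe counts as detected on an array where its detection p-value is under 0.01.

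Chrd was detected on 35 arrays, Fstl1 on 36, Nog on 29 and Fst on 27. Bmp3 was detected on 4 arrays, both of RN and replicate 1 of the E12.5 and of the E13.5 CNH. It therefore passed the filter only through regions where it was high, and had to differ to be tested, so counts of members called are read against all genes without it. Grem1 and Bambi were not well above background on any array, at 4.49 to 5.37 and 4.48 to 5.78 log2 units, with detection p-values of at least 0.063 and 0.0823. They were not tested, no order of their levels is given, and they were not called in any contrast when the filter was dropped.

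**Figure D1:**
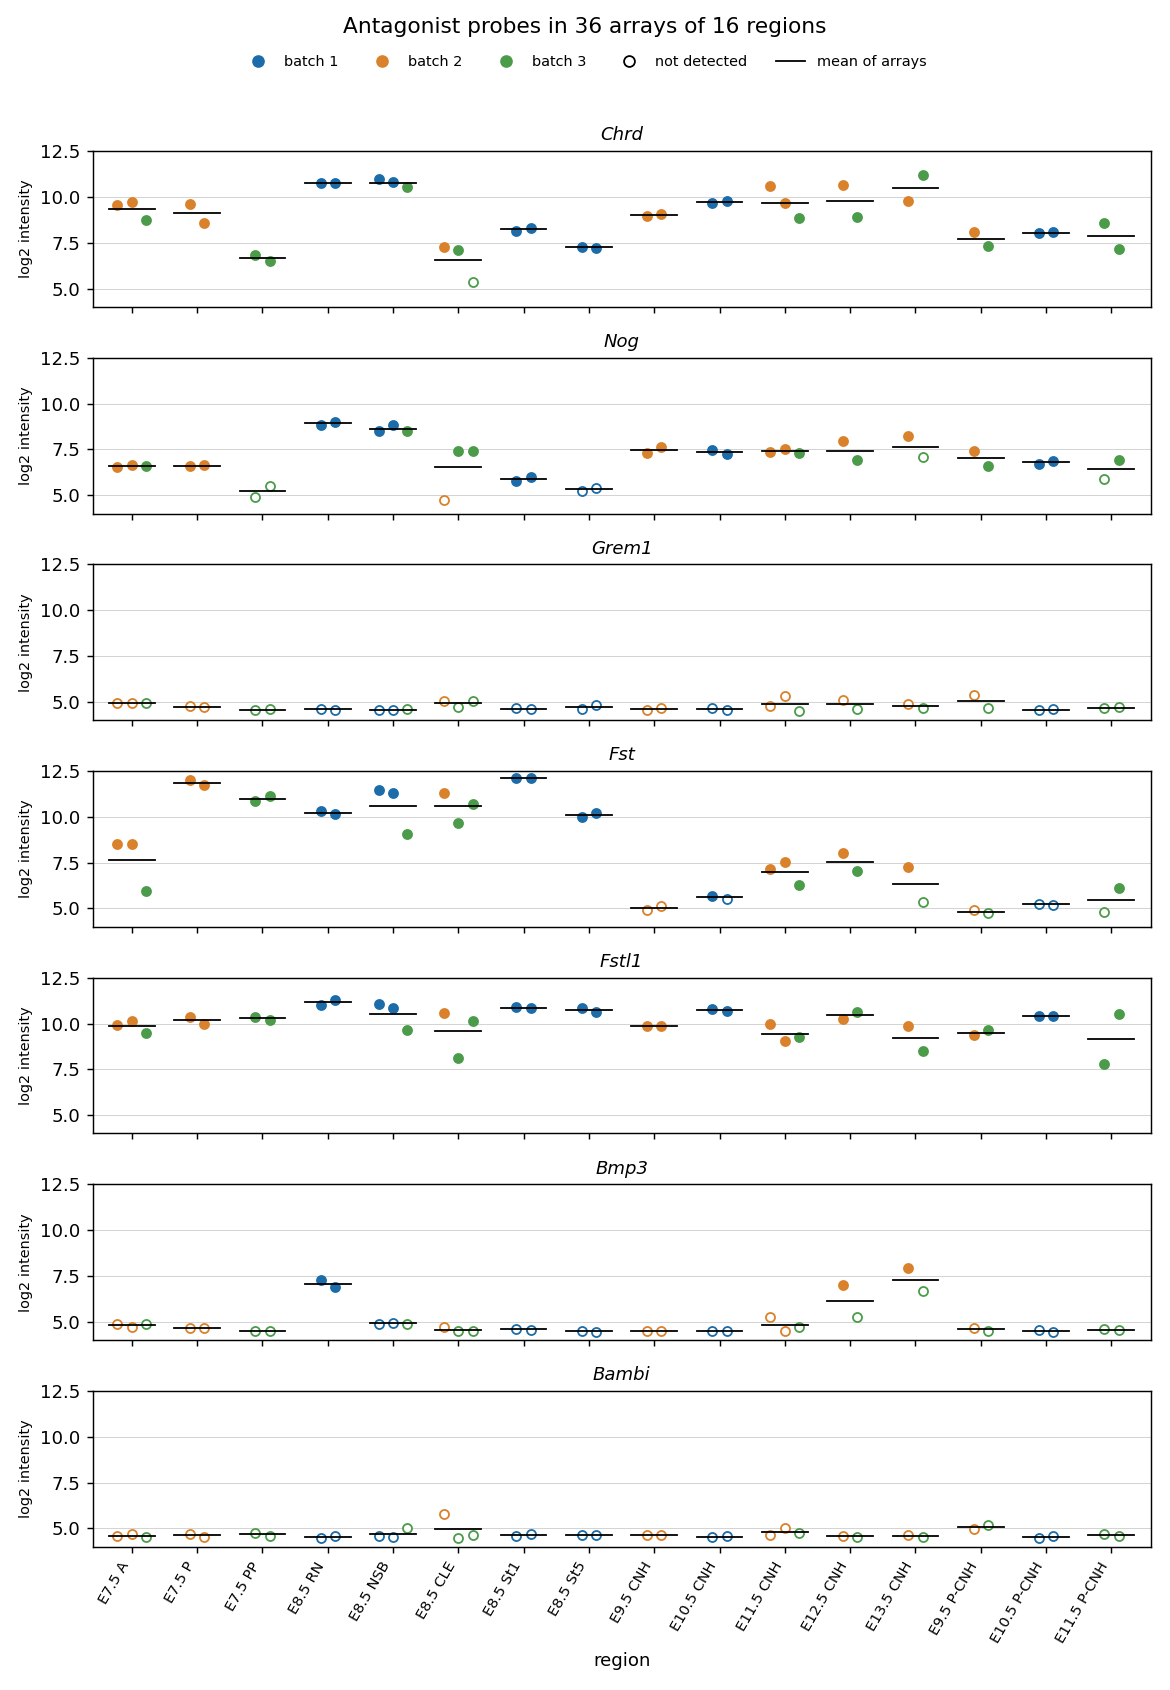
Log2 normalised intensity (y axis) of the 7 antagonist probes in each of the 36 arrays, by region (x axis). Points are arrays coloured by batch, open points are arrays where the probe was not detected and black lines are means of the arrays. By these means Chrd and Nog stand highest in RN and NSB, Fst in the E7.5 P and PP and E8.5 regions, and Bmp3 in RN and the E12.5 and E13.5 CNH. The highest single Chrd array was E13.5 CNH replicate 2, at 11.2.

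The 5 E8.5 regions run from the node to the caudal end of the streak, with CLE beside the streak. Chordin transcripts were abundant at the node and fell along the streak. Chrd read 10.77 and 10.79 in RN, 11.00, 10.81 and 10.53 in NSB, 8.14 and 8.32 in St1, and 7.26 and 7.23 in St5. In CLE it read 7.28, 7.09 and 5.35, the last not detected. All 5 arrays of RN and NSB were above every array of St1, St5 and CLE, and no St5 array reached a St1 array. RN exceeded St5 by 3.53 log2 units (SE 0.569), 11.6-fold (limma, adjusted p = 0.000167).

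Noggin transcripts followed much the same course. Nog read 8.86 and 9.01 in RN, 8.52, 8.85 and 8.51 in NSB, 5.78 and 6.01 in St1, and 5.23 and 5.41 in St5, where neither array detected it. CLE replicate 1 read 4.75 and did not detect the probe, while replicates 2 and 3 read 7.42 and 7.43. RN and NSB arrays lay above those of the other regions, and the spread within CLE covered all of St1 and St5. RN exceeded St5 at least 9.63-fold, with an adjusted p of 0.00022 in limma. That bound holds for the offset of 16 used here, since with an offset of 100 the fitted log2 difference was 2.21 (adjusted p = 3.97e-05) and without background correction 2.29 (7.43e-05). Beside these probes, the 6 node and notochord markers summed to 10075 and 12413 on the linear scale in the lower and higher RN array, 10730 to 13803 in NSB, 5575 to 6889 in St1, 5588 to 5954 in St5 and 2823 to 6841 in CLE. T, the largest part of the sum in each region, was detected in all 5 regions, and its mean stayed between 11.87 and 12.78. Shh, Nodal, Noto and Foxa2 fell from RN to St5, whereas T did not (means of 12.17 in RN and 12.39 in St5). Shh had means of 12.01 in RN, 11.36 in NSB, 7.78 in St1 and 7.73 in St5, and Nodal went from 10.75 in RN to 5.83 in St5. Noto had 8.28, 8.88 and 5.67 in the first 3 of these and was not detected in St5, and Foxa2 8.43 in RN and 5.82 in St5. No CLE array detected Noto, Shh, Foxa2 or Nodal. Foxj1, the other marker of the list, was detected on 2 of 3 CLE arrays, with means of 6.6 in CLE and 6.07 in RN.

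Other tissues moved along the same axis. The 5 posterior streak markers summed to 479 and 588 in RN, 346 to 462 in NSB, 552 and 596 in St1 and 8563 and 10138 in St5, where Tbx4 and Bmp4 were the brightest, and to 558 to 1688 in CLE, where Bmp4 alone was detected. The 4 somite markers, of which only Meox1 and Tcf15 were detected, summed to 888 and 1371 in RN, 541 to 1027 in NSB, 292 and 298 in St1, 165 and 173 in St5 and 212 to 310 in CLE. The means of the neural sums were 913, 368, 257, 131 and 274 in the same order, and those of the endothelium sums 156, 158, 174, 744 and 82, with no endothelium marker detected in CLE. The part of tissue make-up in the Chrd and Nog differences was not tested.

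At E8.5 Bmp3 was detected in RN alone. It read 7.26 and 6.91 in RN, and 4.89, 4.95 and 4.90 in NSB, 4.62 and 4.54 in St1, 4.5 and 4.45 in St5 and 4.70, 4.52 and 4.48 in CLE, none of these detected. The RN arrays stood apart from the other 10, which lay near background. Bmp3 was at least 2.68-fold higher in RN than in St5 (limma, adjusted p = 4.46e-06) and at least 2.28-fold higher in RN than in NSB (adjusted p = 0.00215). These bounds too hold for an offset of 16. With an offset of 100 the fitted RN minus St5 difference was 1.05 (adjusted p = 0.000144) and NSB minus RN -0.95 (0.0104), and without background correction 1.57 (6.83e-06) and -1.12 (0.0147). The call against NSB was lost without NSB replicate 1 (a log2 difference of -2.14, adjusted p = 0.0824), NSB replicate 2 (-2.19, adjusted p = 0.0539) or RN replicate 1 (-1.99, adjusted p = 0.112), while within batch 1 its adjusted p was 3.61e-05. The node and notochord sums above were as high in NSB (10730 to 13803) as in RN (10075 and 12413). Of that list Shh was lower in NSB, with means of 11.36 in NSB and 12.01 in RN. Neural markers summed to a mean of 913 in RN and 368 in NSB, with Olig3 at means of 9.2 and 7.31 and Sox1 and Pax6 not detected on any array. Blood markers summed to 1711 and 3198 in RN and 287 to 591 in NSB, and visceral endoderm markers to 1538 and 2081 in RN and 440 to 986 in NSB. The paraxial mesoderm markers went the other way, with 869 and 1512 in RN and 2512 to 3539 in NSB. The part of these tissues in the Bmp3 values was not tested.

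Follistatin had another course, and read highest in the rostral streak. Fst read 10.33 and 10.14 in RN, 11.46, 11.32 and 9.08 in NSB, 12.10 and 12.10 in St1, 9.99 and 10.20 in St5, and 11.32, 9.67 and 10.72 in CLE. Both St1 arrays were above the other 10, RN and St5 overlapped, and the low NSB array was replicate 3. The model, which allows for batch, placed CLE 0.33 above St1 (SE 0.666, adjusted p = 1), so the order of these neighbours cannot be told. St5 was below St1 by a log2 difference of -2 (SE 0.433, 4-fold; limma, adjusted p = 0.00698), whereas RN minus St5 was 0.14 (SE 0.433, adjusted p = 1). Within batch 1 alone, where the replicates lie closest, NSB exceeded RN by 1.15 log2 units (adjusted p = 0.000624) and St1 exceeded NSB by 0.71 (adjusted p = 0.00441), whereas over all arrays the same differences had an adjusted p of 1. With the BeadChip as a fixed block NSB against RN was called too (1.15, adjusted p = 0.0286). The Fst batch terms were wide, 1.09 in batch 1, 0.12 in batch 2 and -1.22 in batch 3, and with no batch term the range over regions lost its call (adjusted p = 0.399), as did St5 against St1 (adjusted p = 0.34). The St5 against St1 call also ended without St1 replicate 1 or 2 (a difference of -2 both times, adjusted p = 0.0711 and 0.0705), St5 replicate 1 (-1.89, adjusted p = 0.0903) or St5 replicate 2 (-2.11, adjusted p = 0.053). Markers of paraxial mesoderm, Tbx6 and Dll1, summed to 4302 to 4356 in St1 and to 1965 to 2092 in St5. The posterior streak sums given above rose from 552 and 596 to 8563 and 10138 over the same step, and those of endothelium from 170 and 179 to 684 and 805. The part of these tissues in the Fst differences was not tested, here or between RN and NSB.

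Fstl1, an extracellular glycoprotein related to follistatin by sequence, was detected on every E8.5 array. It read 11.04 and 11.27 in RN, 11.05, 10.85 and 9.64 in NSB, 10.89 and 10.86 in St1, 10.84 and 10.64 in St5, and 10.55, 8.10 and 10.16 in CLE. NSB replicate 3 and the CLE arrays, all outside batch 1, were the lowest, the fitted means spanned 0.42 log2 units (limma F test, adjusted p = 1), and RN minus St5 was 0.42 (SE 0.626, adjusted p = 1).

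Over the 5 regions together, limma's moderated F test called 4 of the 5 tested antagonists, Chrd, Nog, Fst and Bmp3, where 7.46% of the 15556 genes tested were called. Without Bmp3, the count was 3 of 4. The ranges of fitted means were 4.21 log2 units for Chrd (adjusted p = 3.94e-06) and 2.34 for Fst (0.00649), beside a median of 0.54 over all genes. For Nog (adjusted p = 9.21e-05) and Bmp3 (1.08e-05) the lowest region did not detect the probe, so no range is given. Between the ends of the axis, 3 of 5 were called, all higher in RN, or 2 of 4 without Bmp3, against 6.76% of genes. Within batch 1 the RN and St5 differences are the same, since both regions lie there, with adjusted p-values of 5.05e-09 for Chrd, 2.37e-08 for Nog and 7.33e-08 for Bmp3.

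**Figure D2:**
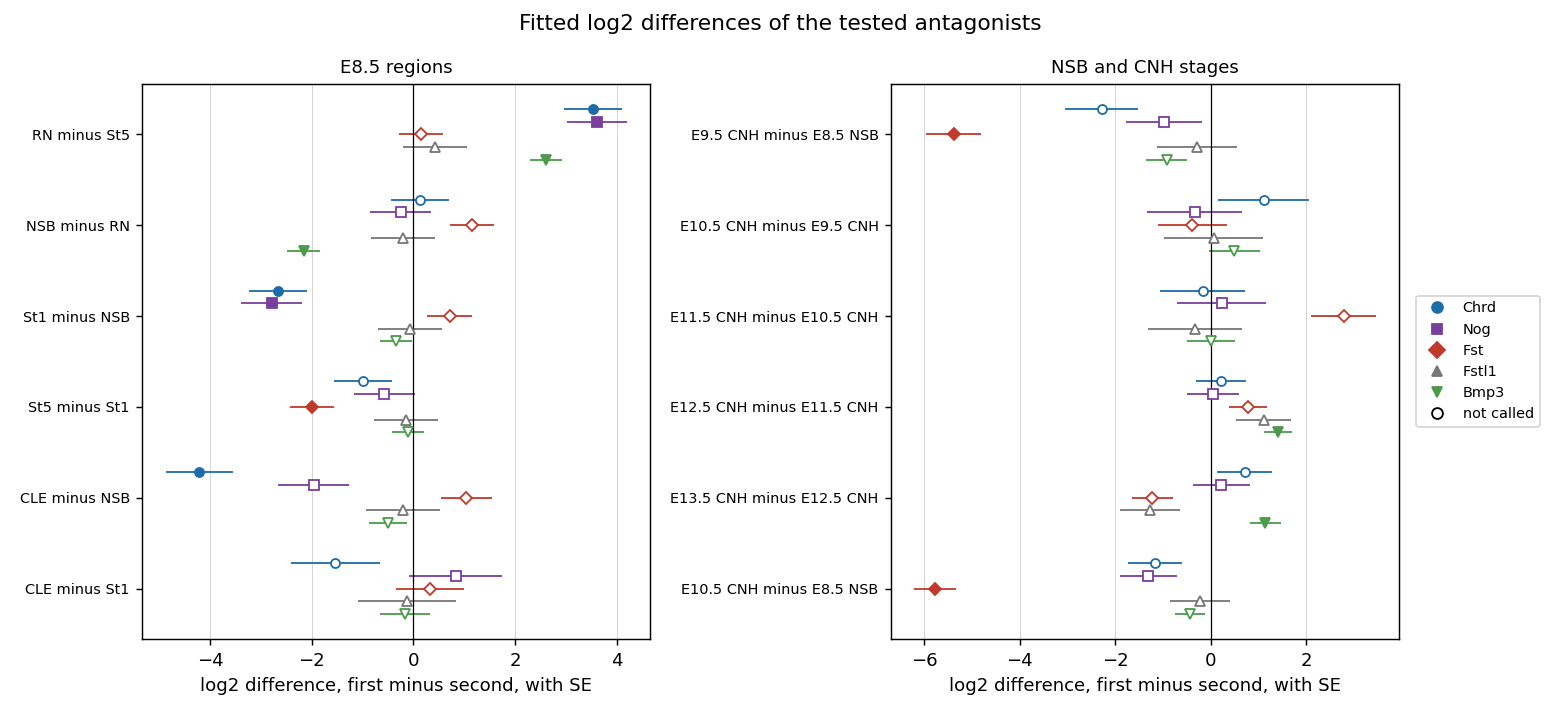
Log2 differences (x axis, first region minus second, bars show the SE) of the 5 tested antagonists in each contrast (y axis) of the E8.5 regions, left, and of NSB and the CNH stages, right. Filled symbols are called. Where neither region detected Bmp3 the difference lies near background, and Fst was detected on 0 of 2 arrays of the E9.5 CNH and 1 of 2 of the E10.5 CNH.

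Step by step, the fall of Chrd and Nog lay between NSB and St1. Chrd fell by 2.67 log2 units there (SE 0.569, limma, adjusted p = 0.01) and Nog by 2.79 (SE 0.595, adjusted p = 0.01). These were 2 of the 5 members, or 2 of 4 without Bmp3, against 1.64% of genes. From RN to NSB only Bmp3 was called (0.135% of genes), so 0 of 4 without it, and from St1 to St5 only Fst (3.66%). From NSB to CLE only Chrd was called (2.73% of genes), a fall of 4.21 log2 units (SE 0.664, limma, adjusted p = 0.000256). In the main model this contrast rests, for every gene, on NSB replicate 3 alone, since every CLE array lay in batches 2 and 3. No member was called between St1 and CLE (0.135% of genes), nor reached an unadjusted p under 0.05 in limma. With a ComBat-type adjustment Chrd was called between St1 and CLE (-1.54, adjusted p = 0.032). With at least 1 of the 5 steps called, 4 of 5 members, or 3 of 4 without Bmp3, stood beside 6.38% of genes. Nog in CLE minus NSB was -1.96 (SE 0.695, adjusted p = 0.227), and it was called with the BeadChip as a random block (-2.14, adjusted p = 0.0167), with no batch term (-2.09, adjusted p = 0.00832) and with a ComBat-type adjustment (-1.98, adjusted p = 0.00242). Fst was called higher in CLE than in NSB with a ComBat-type adjustment (1.01, adjusted p = 0.0324). The Chrd fall from NSB to St1 lost its call without NSB replicate 1 (-2.58, adjusted p = 0.135) or 2 (-2.76, 0.0855), or without St1 replicate 1 (-2.58, 0.141) or 2 (-2.76, 0.082). For Nog the same 4 arrays ended it (-2.96, -2.62, -2.68 and -2.91, adjusted p = 0.0649, 0.176, 0.149 and 0.0779), and its size went to -1.79 with an offset of 100 (0.00133) and -1.82 without background correction (0.00331). Within batch 1 the adjusted p of this fall was 7.58e-08 for Chrd and 4.72e-07 for Nog, and St5 was also called below St1 for Chrd (a difference of -0.99, adjusted p = 9.7e-05). A fit of CLE against NSB within batches 2 and 3 is the same comparison as in the main model, so it adds no separate check.

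The CNH follows NSB in the growing axis, and its antagonists were followed from E9.5 to E13.5. Follistatin was near background at the start of this series and higher later. Fst was not detected in E9.5 CNH (4.92 and 5.15), read 5.70 and 5.54 at E10.5, the latter not detected, and then 7.16, 7.53 and 6.26 at E11.5. It read 8.01 and 7.06 at E12.5 and 7.26 and 5.37 at E13.5, the last not detected. Every E11.5 and E12.5 array exceeded every E9.5 and E10.5 array, and none reached the lowest NSB array at 9.08. Over the 5 CNH stages the range of fitted means was 3.56 log2 units (limma F test, adjusted p = 8.1e-05). Its low end is the fitted 4.52 at E10.5, below both arrays of that stage, of which 1 detected the probe. That fitted level rests on the single NSB array that ties the batches, so the lowest stage cannot be told and the range depends on it. The call was lost with no batch term (2.5, adjusted p = 0.087) and kept within batches 2 and 3, without E10.5 (3.17, adjusted p = 0.00716). From NSB to E9.5 CNH, Fst was called lower (limma, adjusted p = 1.21e-06), with a bound of at least 21.3-fold in measured means. Those means make no allowance for batch. That of NSB joins replicates 1 and 2 of batch 1 (11.46 and 11.32) to replicate 3 of batch 3 (9.08). In the main model the step rests on NSB replicate 3 alone, since it ties batch 1 to the others. A fit within batches 2 and 3 is therefore the same comparison, and its log2 difference was -5.38, as over all arrays. It ran from -3.28 with an offset of 100 (-3.45 without background correction), less than that bound, which holds for an offset of 16, to -7.74 with the BeadChip as a fixed block, and was called in each of the 11 alternatives. The 4 blood markers summed to 287 to 591 in NSB, where Hbb-y and Alas2 were not detected, against 26872 and 27259 in E9.5 CNH and 22191 and 22229 in E10.5 CNH, carried by Hbb-y and Hbb-bh1 with means of 13.49 and 13.34 at E9.5. The 4 visceral endoderm markers went from 440 to 986 in NSB to 142 and 146 in E9.5 CNH, with none detected there. The part of these tissues in the Fst difference was not tested. The step from E10.5 to E11.5 was 2.78 (SE 0.679, adjusted p = 0.192), which was called with the BeadChip as a fixed block (2.75, adjusted p = 0.00109), a ComBat-type adjustment (2.75, 1.16e-05) and an offset of 100 (2.26, 0.0354). The E10.5 arrays share no batch with the E9.5 and E11.5 arrays, so both steps rest on the single NSB array that ties the batches. From E12.5 to E13.5 the difference was -1.22 (adjusted p = 0.0734), and it was called without E13.5 replicate 1 (-1.55, adjusted p = 0.0362), either E11.5 P-CNH array (-1.22, 0.0353) or E7.5 A replicate 3 (-1.22, 0.0421), with the BeadChip as a fixed block (-1.22, 0.00208) and with a ComBat-type adjustment (-1.16, 0.0339).

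In the CNH, Bmp3 was detected only at the 2 last stages, on 1 array of each. It was not detected at E9.5 (4.49 and 4.5), E10.5 (4.5 and 4.49) or E11.5 (5.26, 4.52 and 4.70), then read 7.03 and 5.27 at E12.5 and 7.92 and 6.66 at E13.5, where replicate 1 of each stage detected it. After normalisation the E13.5 arrays were above every array up to E11.5, while E12.5 replicate 2 met the highest of these closely. For E13.5 replicate 2, which did not detect the probe, that place depends on the normalisation. Its raw intensity was 81.1, below E11.5 replicates 1 and 3 (90.1 and 87.4). The stages differed in limma's F test, with the low end not detected and so no range given (adjusted p = 3.32e-06; within batches 2 and 3, without E10.5, adjusted p = 0.000464). The step from E11.5 to E12.5, 1.41 (SE 0.294, adjusted p = 0.0395), is at least 1.05-fold as a bound. It was lost without E12.5 replicate 1 (0.65, adjusted p = 0.646) and without E11.5 replicate 2 (1.17, adjusted p = 0.29), it grew to 2.1 without E12.5 replicate 2 (adjusted p = 0.0018), and the adjusted p was 0.0541 to 0.0611 at an unmoved 1.41 without any of the E9.5 CNH, E10.5, RN, St1, St5, E7.5 P or PP arrays, NSB replicate 1 or 2 or E7.5 A replicate 1. Within batches 2 and 3 its adjusted p was 0.46, and it was also lost with no background correction (0.8, adjusted p = 0.0815), an offset of 100 (0.57, 0.152), no batch term (1.32, 0.243) and no filter (1.41, 0.0542). The step from E12.5 to E13.5, 1.14 (SE 0.32, adjusted p = 0.0308), was lost without E12.5 replicate 2 (0.42, adjusted p = 0.609) or E13.5 replicate 1 (0.71, adjusted p = 0.15). It grew to 1.86 without E12.5 replicate 1 (adjusted p = 0.00197), shrank to 0.6 at an offset of 100 (0.0285) and 0.64 where no background was subtracted (0.0441), and turned to -0.12 with cyclic loess normalisation (adjusted p = 0.849). It was not called with no batch term (adjusted p = 0.0962) or within batches 2 and 3 (0.146). The sum of the 4 surface ectoderm markers was 137 to 447 at E11.5, 929 and 1136 at E12.5 and 2766 and 2786 at E13.5. Krt14, with means of 6.51, 8.76 and 10.93 at these stages, and Trp63, with 6.41, 8.79 and 9.21, carried it, while Grhl3 had means of 6.81 and 6.43 at E12.5 and E13.5 and Krt15 was not detected at E12.5 or E13.5. The 3 endothelium markers summed to 105 to 161 at E11.5, 128 and 216 at E12.5 and 512 and 676 at E13.5. The 5 posterior streak markers summed to 616 to 744, 663 and 872, and 1664 and 3809, carried at E13.5 by Bmp4 with a mean of 11.18, while Tbx4, Hand1 and Kdr were not detected at these stages. The 6 node and notochord markers summed to 17867 and 23587 at E12.5, and at E13.5 to 18944 in replicate 1 and 4718 in replicate 2, which stood apart, with Noto and Foxa2 detected on 1 of the 2 arrays. The part of these tissues in the Bmp3 values was not tested.

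Chordin and noggin stayed present through all CNH stages. Chrd read 8.97 and 9.07 at E9.5, 9.66 and 9.80 at E10.5, 10.58, 9.66 and 8.85 at E11.5, 10.66 and 8.93 at E12.5, and 9.80 and 11.20 at E13.5. E10.5 to E13.5 overlapped one another, and the range of 1.87 did not pass the limma F test (adjusted p = 0.207). Without E13.5 replicate 1 that range was 3.32 and called (adjusted p = 0.00653), and with a ComBat-type adjustment 1.77 (adjusted p = 0.0488). From E12.5 to E13.5 it was then called as well without that array (1.98, adjusted p = 0.014). From NSB to E9.5 CNH the Chrd difference of -2.28 (SE 0.76, adjusted p = 0.0909) was called without either E13.5 array (-2.64, adjusted p = 0.00884) and with a ComBat-type adjustment (-2.26, 0.000357). Nog read 7.31 and 7.66 at E9.5, 7.49 and 7.25 at E10.5, 7.36, 7.5 and 7.32 at E11.5, 7.97 and 6.91 at E12.5, and 8.24 and 7.07 at E13.5, the last not detected. All stages overlapped, with a range of 0.48 (adjusted p = 0.992), and the difference of -0.97 from NSB to E9.5 (adjusted p = 0.652) was called only without CLE replicate 1 (-1.59, adjusted p = 0.028). Fstl1 lay between 8.5 and 10.78 in these 11 arrays, and its range of 1.27 was not called (adjusted p = 0.518).

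Across CNH stages, 2 of 5 members were called, Fst and Bmp3, against 15.2% of all genes, whose median range was 0.93. Between consecutive stages counted from NSB, the same 2 were called in at least 1 step, against 14.6% of genes. Without Bmp3, both counts were 1 of 4. By step, Fst was the member called from NSB to E9.5 CNH (5.76% of genes), Bmp3 from E11.5 to E12.5 (0.244%) and from E12.5 to E13.5 (9.69%), so 0 of 4 without it in each of these 2 later steps. No member was called from E9.5 to E10.5 (0.0836% of genes) or from E10.5 to E11.5 (0.09%), where Fst alone had an unadjusted p under 0.05 in limma, in the later step.

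**Figure D3:**
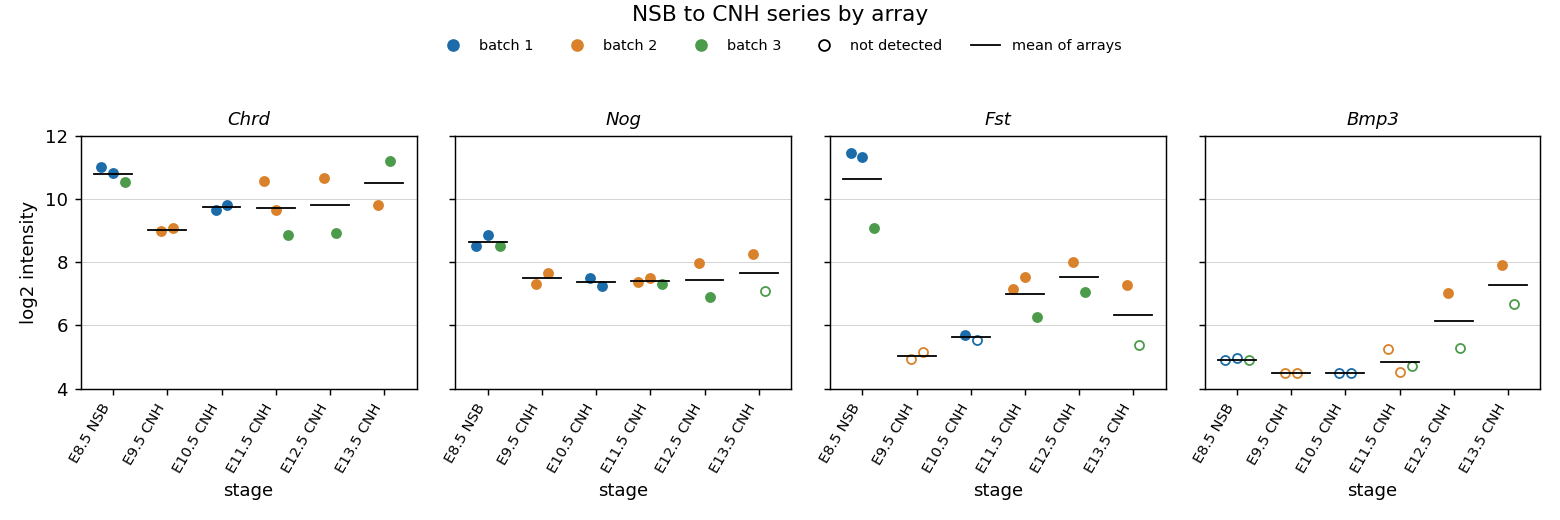
Log2 normalised intensity (y axis) of Chrd, Nog, Fst and Bmp3 in each array of E8.5 NSB and of the CNH from E9.5 to E13.5 (x axis). Points are arrays coloured by batch, open points are not detected and lines are means. Fst is lowest at E9.5 and E10.5, and Bmp3 is detected on 1 of 2 arrays at E12.5 and at E13.5.

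NSB and E10.5 CNH can be compared within batch 1. Only Fst was called, 1 of 5 members, or 1 of 4 without Bmp3, against 8.06% of genes. It was lower in E10.5 CNH by a log2 difference of -5.77 (SE 0.433, limma, adjusted p = 2.05e-09, and 2.51e-10 within batch 1). Of the 2 E10.5 CNH arrays 1 detected the probe, and over the other settings the difference shrank to as little as -4.38. The node antagonists were lower there too without passing the test, Chrd by a difference of -1.17 (SE 0.569, adjusted p = 0.347) and Nog by -1.31 (SE 0.595, adjusted p = 0.284). Within batch 1 both were called, with adjusted p-values of 1.41e-05 and 5.05e-05. Nog was also called with cyclic loess (-1.23, adjusted p = 0.0222) and without CLE replicate 1 (-1.31, adjusted p = 0.00797). Blood markers summed to 287 to 591 in NSB and 22191 and 22229 in E10.5 CNH, and visceral endoderm markers to 440 to 986 and 160 and 231. The part of these tissues in the differences was not tested.

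CNH and P-CNH are neighbouring tissues, of which the CNH contains the end of the notochord. Chrd was higher in the CNH arrays at each stage, but no contrast passed. In P-CNH it read 8.09 and 7.32 at E9.5, 8.01 and 8.09 at E10.5, and 8.56 and 7.18 at E11.5, and in no stage did these overlap the CNH arrays. The differences, CNH minus P-CNH, were 0.93 (SE 0.589), 1.68 (SE 0.569) and 1.31 (SE 0.557), with adjusted p-values of 1, 0.807 and 0.912 in limma. None of 5 members, and so 0 of 4 without Bmp3, was called at any stage. The shares of genes were 0.174% at E9.5, 0.321% at E10.5, 0.18% at E11.5 and 0.456% for at least 1 stage. At an unadjusted p under 0.05, 0 members passed at E9.5, and 1, Chrd, at E10.5 and at E11.5. Within batch 1 the E10.5 difference of Chrd was called (adjusted p = 1.21e-05). Nog read 7.44 and 6.58, 6.73 and 6.87, and 5.91 and 6.92 in the P-CNH at the 3 stages, with 5.91 not detected, overlapping the CNH at E9.5 only. Fst was detected on 1 of the 6 P-CNH arrays, Bmp3 on 0, and Fstl1 read 7.8 to 10.51. With the BeadChip as a fixed block Fst was called at E11.5 (1.16, adjusted p = 0.0202) and, with the opposite sign, at E9.5 (-2.23, 0.00605; -0.46 over all arrays without that block), where neither tissue detected it. The differences between CNH and P-CNH were not shown to vary with stage, with an adjusted p of 1 for each of the 5 members. Noto, Shh and Foxa2, markers of node and notochord, were detected in both arrays of the E9.5 and E10.5 CNH and in no P-CNH array of those stages. At E11.5 all 3 CNH arrays detected them, and of the 2 P-CNH arrays 1 detected Noto, 1 Shh and 0 Foxa2. Nodal was detected on 1 of 2 E9.5 CNH arrays, both at E10.5 and no P-CNH array. T was as high in P-CNH at E9.5 (means of 13.73 in CNH and 13.79 in P-CNH). Foxj1 was detected at E9.5 on 1 of 2 CNH and both P-CNH arrays. Sums of the 6 markers overlapped at E9.5 (15009 and 16019 against 11718 and 17478) and E11.5 (17928 to 21454 against 6418 and 19073). At E10.5 they were higher in CNH (13773 and 14964 against 10647 and 12202). Blood markers summed to 26872 and 27259 in CNH and 3092 and 5672 in P-CNH at E9.5, and 22191 and 22229 against 15215 and 18346 at E10.5, and they overlapped at E11.5. Paraxial mesoderm markers were lower in CNH, with 2014 and 2084 against 3663 and 4166 at E9.5, 3534 and 4317 against 4575 and 4616 at E10.5, and 2429 to 3382 against 4767 and 5555 at E11.5. Somite and neural sums were higher in CNH at each stage, with somite sums of 677 and 713 against 396 and 424 and neural sums of 345 and 349 against 175 and 199 at E9.5. Surface ectoderm sums were lower in CNH at E11.5 (137 to 447 against 489 and 808). Endothelium sums were higher in CNH at E10.5 (315 and 406 against 136 and 161) and lower at E11.5 (105 to 161 against 176 and 197). Posterior streak sums were lower in CNH at E9.5 (653 and 654 against 910 and 973) and higher at E10.5 (448 and 521 against 375 and 390). The part of these tissues in the Chrd values was not tested.

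At E7.5, before a node-streak border was dissected, follistatin was posterior and chordin was low in PP. Fst read 8.52, 8.52 and 5.96 in A, 12 and 11.75 in P, and 10.86 and 11.14 in PP, so that A lay below both posterior regions on every array. A was below P by a difference of -3.77 (SE 0.403, limma, adjusted p = 1.63e-06) and below PP by -4.23 (SE 0.424, adjusted p = 3.75e-07), with adjusted p-values of 0.000315 and 8.54e-05 within batches 2 and 3. Both P arrays were in batch 2 and both PP arrays in batch 3, joined by A, which had arrays in both. Chrd read 9.55, 9.75 and 8.75 in A, 9.64 and 8.58 in P, and 6.83 and 6.51 in PP. A exceeded PP by 2.17 (SE 0.557, adjusted p = 0.0179), which was lost without A replicate 3 (2.24, adjusted p = 0.0524), PP replicate 1 (2.33, 0.0913) or PP replicate 2 (2.01, 0.124), with the BeadChip as a fixed block (2.08, 0.0505), and within batches 2 and 3 (2.17, 0.107). Nog read 6.52, 6.64 and 6.62 in A and 6.57 and 6.64 in P but was not detected in PP (4.92 and 5.53), where A was at least 1.93-fold higher (adjusted p = 0.2; with cyclic loess a difference of 1.4 and 0.00751). Fstl1 lay between 9.49 and 10.38 in the 7 arrays, and Bmp3 was not detected. In all, 2 of 5 members, or 2 of 4 without Bmp3, were called in at least 1 contrast, against 7.53% of genes. By contrast, the counts were 1 for A against P (2.88% of genes), 2 for A against PP (6.79%) and 0 for PP against P (0.829%). In that last contrast Chrd and Nog had an unadjusted p under 0.05, with differences, PP minus P, of -1.67 (adjusted p = 0.321) and -1.43 (adjusted p = 0.463). Chrd was called there with no batch term (-2.44, adjusted p = 0.0468) and a ComBat-type adjustment (-1.7, 0.0397), and Nog with cyclic loess (-1.46, 0.049). Visceral endoderm markers summed to 12017 and 24832 in the PP arrays, against 3271 and 3888 in P and 1071 to 8801 in A, carried in PP by Ttr and Apoa1 with means of 13.11 and 12.83, and their part in these differences was not tested. The paraxial mesoderm markers with a probe, Tbx6 and Dll1 of 3 listed, summed to 119 to 159 in A, where Tbx6 was not detected, 2580 and 3015 in P and 3657 and 3894 in PP. The 6 node and notochord markers summed to 2269 to 4556 in A, 9330 and 9767 in P and 7081 and 15561 in PP, where T carried the sum. The markers of that list differed in course. T rose, with means of 10.7 in A, 13.07 in P and 13.32 in PP, while Shh and Foxa2 fell from A to PP. Shh had means of 10.54 in A and 8.75 in P and was not detected in PP, and Foxa2 had 7.85, 7 and 6.44. Noto was detected on 1 of 3 A arrays, both P arrays and no PP array. Nodal was not detected in A, had a mean of 7.67 in P and was detected on 1 of 2 PP arrays. Foxj1 had means of 6.64 in A, 6.68 in P and 6.09 in PP. The 4 somite markers summed to 561 to 1186 in A, 2251 and 2881 in P and 241 and 621 in PP, and the 4 neural markers to 148 to 708, 307 and 409, and 131 and 133. The 5 posterior streak markers, of which Bmp4 was the brightest, summed to 338 to 617 in A, 801 and 811 in P and 2470 and 3370 in PP. A replicate 3, the A array in batch 3 with PP, stood apart from A replicates 1 and 2. Its visceral endoderm sum was 8801 against 1284 and 1071, and its neural sum 148 against 503 and 708. Its node and notochord sum was 2269 against 4468 and 4556, and it had the low Fst value of 5.96. The part of these tissues in the Fst and Chrd differences was not tested either.

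Over all 16 regions, the fitted means place the regions in an order, though neighbours in it seldom differ by more than 2 SE of their difference. For Chrd the order was NSB (10.91), RN (10.79), CNH at E13.5, E12.5 (9.79), E10.5 (9.74) and E11.5 (9.57), E7.5 A (9.22) and P (8.72), E9.5 CNH (8.63), E11.5 P-CNH (8.25), St1 (8.24), E10.5 P-CNH (8.06), E9.5 P-CNH (7.70), St5 (7.25), E7.5 PP (7.05) and CLE (6.70). Its SEs were 0.40 to 0.62, its SDs between arrays 0.01 in RN to 1.23 in E12.5 CNH, and no neighbours differed beyond 2 SE.

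For Nog the order was RN (8.8), NSB (8.55), CNH at E13.5 (7.72), E9.5 (7.58), E12.5 (7.51), E11.5 (7.47) and E10.5 (7.24), E9.5 P-CNH (7.08), E7.5 P (6.70) and A (6.67), E10.5 P-CNH (6.67), CLE (6.59), E11.5 P-CNH (6.45) and St1 (5.76), while E7.5 PP and St5 had no detection and are not ranked. The SDs between arrays ran from 0.05 in E7.5 P to 1.54 in CLE, and again no ranked neighbours differed beyond 2 SE. In both orders RN and NSB came first and E13.5 CNH next, but these neighbours cannot be told apart. E13.5 CNH replicate 2 detected the fewest probes of all arrays (10814), read 11.2 for Chrd and did not detect Nog.

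For Fst the order was E7.5 PP (12.22) and P (11.76), CLE (11.34), St1 (11.00), NSB (10.29), RN (9.14), St5 (9.00), E12.5 CNH (8.09), E7.5 A (7.99), E11.5 CNH (7.31), E13.5 CNH (6.86), E11.5 P-CNH (6.68) and E10.5 CNH (4.52), while E9.5 CNH and the P-CNH at E9.5 and E10.5 had no detection and are not ranked. The gap between NSB and RN (1.15, SE 0.43) exceeded 2 SE, the other gaps down to E11.5 P-CNH did not, and the last gap was not tested. These fitted means stand at the average batch, and since the Fst batch terms are wide they part from the measured means, which were 12.10 in St1 and 10.57 in CLE. Its SDs between arrays reached 1.48 in E7.5 A.

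For Fstl1 the fitted means ran from 10.89 in E7.5 PP through 10.80 in E12.5 CNH, 10.45 in RN, 10.27 in E7.5 P, 10.24 in NSB, 10.17 in St1, 10.12 in E7.5 A, 10.04 in CLE, 10.03 in St5, 10.02 in E10.5 CNH and 9.96 in E9.5 CNH to the P-CNH at E9.5 (9.86), E11.5 (9.76) and E10.5 (9.71), E11.5 CNH (9.69) and E13.5 CNH (9.53). No neighbours differed beyond 2 SE, and the SDs between arrays reached 1.91 in E11.5 P-CNH. For Bmp3 the order was RN (7.24), E13.5 CNH (7.21) and E12.5 CNH (6.07), with a gap above 2 SE between the CNH stages (1.14, SE 0.32). The other 13 regions had no detection and are not ranked.

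The genes most like each member over the 16 fitted means were sought among genes with a range of at least 1 log2 unit, 11781 in all. Nearest to Chrd were 1700027N10Rik (Pearson r = 0.898), Vtn (0.897), which encodes the matrix protein vitronectin, and Shh (0.892), the hedgehog ligand of node and notochord. Nearest to Nog were Arl4a (0.891), a small GTPase, 4931426K16Rik (0.891) and Smoc1 (0.862), which encodes an extracellular protein. For Fst they were Tes (0.934), a LIM domain protein of focal adhesions, C030003D03Rik (0.924) and Rerg (0.923), a Ras-like GTPase. For Fstl1 they were Tmem184c (0.922), AW146020 (0.847) and LOC100042405 (0.837), and for Bmp3 9330162L04Rik (0.945), 8430408G22Rik (0.936) and the cytokine gene Il33 (0.883), over means of which 13 lie near background for Bmp3. Among the members themselves, Chrd and Nog had r = 0.83, and Fst and Chrd -0.18. These r describe 16 regions that share arrays of 3 batches, and carry no test.

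The wider pathway was read from fixed lists of ligands, receptors, SMADs, targets and further antagonists. Bmp4 and the tested targets were higher in St5 than in RN, where Chrd, Nog and Bmp3 were higher. Among 6 tested of 11 ligands, 3 were called over the E8.5 regions, against 7.46% of all genes. Bmp4 had means of 8.00 in RN, 8.02 in NSB, 9.96 in CLE, 8.51 in St1 and 11.79 in St5 (range of fitted means 4.00, limma F test, adjusted p = 1.52e-06). Nodal had means of 10.75 in RN, 10.79 in NSB, 7.06 in St1 and 5.83 in St5 and was not detected in CLE (adjusted p = 1.42e-14), and it is also 1 of the 6 node and notochord markers summed above. Bmp7 ranged over 1.79 (adjusted p = 0.00501), highest in St5 and lowest in St1.

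All 5 tested targets of 6 were called over the E8.5 regions, against the same 7.46%, and all 5 were called lower in RN than in St5 (6.76% of genes in either direction), by a median log2 difference of -1.47, where the median over all genes was -0.01. Msx1, a homeobox gene induced by BMP, rose from a mean of 9.49 in RN to 12.48 in St5 (range 2.99, adjusted p = 0.0234). Id2, of the family of HLH inhibitors that BMP induces, ranged over 2.50 (adjusted p = 0.000164) and was highest in St5, as was Id4 (adjusted p = 0.00668), which CLE and St1 did not detect. In the fitted means Id1 and Id2, detected on every array, were lowest in St1 and not in RN. The posterior streak sums, of which Bmp4 is 1 marker, were 479 and 588 in RN and 8563 and 10138 in St5. Those of endothelium were 154 and 159 in RN and 684 and 805 in St5, while the node, somite and neural sums were lower in St5. The part of these tissues in the Bmp4 and target differences was not tested. None of the 8 receptors and none of the 4 tested of 6 signal-carrying SMADs was called over the E8.5 regions or the CNH stages in limma. At an unadjusted p under 0.05, 0 receptors and 0 SMADs passed at E8.5, and 1 receptor and 0 SMADs over the CNH stages.

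Further antagonists were not of 1 kind. Of 19 listed, 11 were tested, and 6 were called over the E8.5 regions (7.46% of all genes), with 3 higher and 2 lower in RN than in St5 (6.76% in either direction). Of these, Dand5 was detected on 5 arrays only, those of RN and NSB, and so had to differ to be tested. Without it, 5 of 10 were called over the regions, and 2 were higher in RN. Bmper, which binds BMPs and resembles chordin in its repeats, had a mean of 10.23 in St5 and 5.29 in RN, where 1 of 2 arrays detected it (adjusted p = 5.8e-07). Lefty1, a secreted inhibitor of Nodal, had means of 9.5 in RN, 8.92 in NSB and 7.45 in St1 and was not detected in CLE and St5 (adjusted p = 7.54e-11), and Dand5, of the Cerberus family, had 8.43 in RN and 8.07 in NSB and was detected in no other E8.5 region (adjusted p = 1.1e-12). Named after their values were seen, the inhibitory Smad6 had a mean of 8.03 in St5 and was not detected in RN (adjusted p over the regions 0.00545), Lefty2 was called over the regions (0.0364) but not between RN and St5 (0.176), and Cer1 in neither (0.128 and 0.137).

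**Figure D4:**
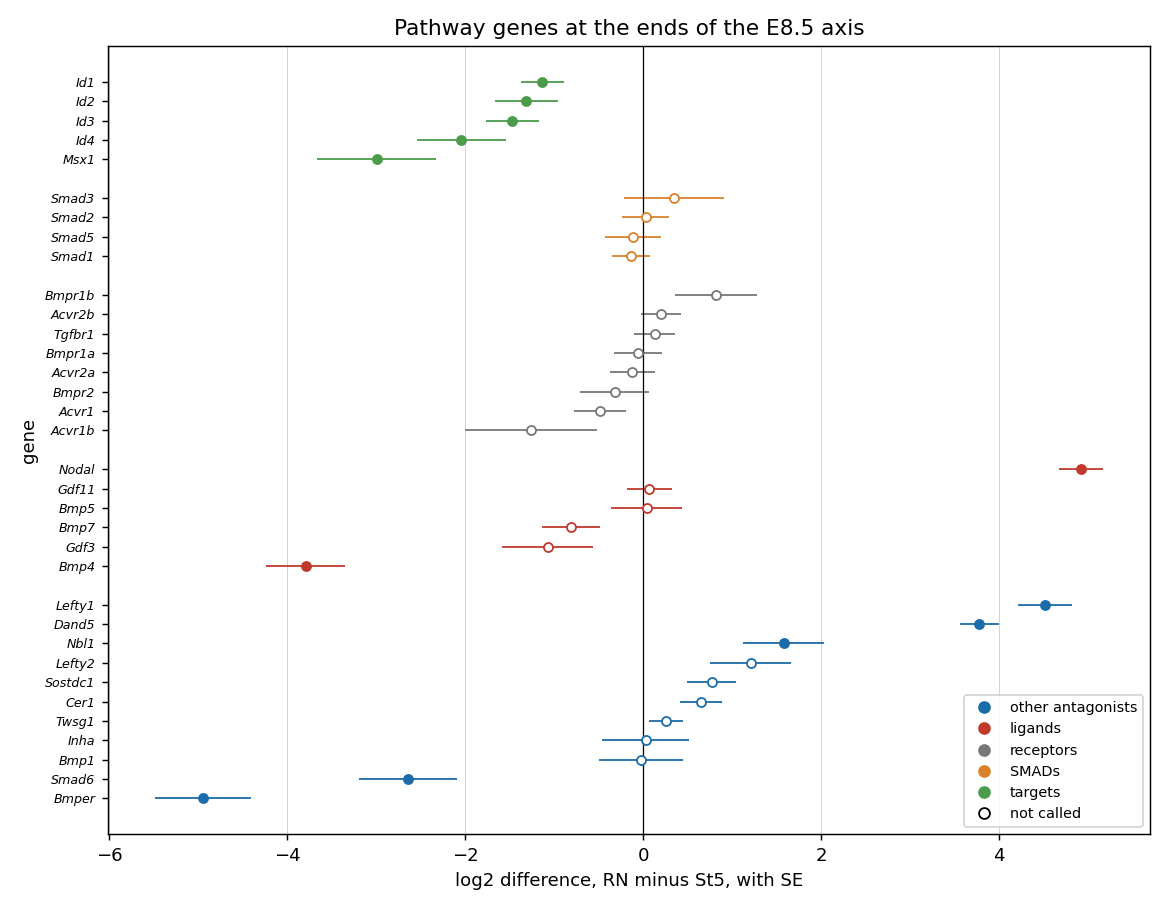
Log2 difference, RN minus St5 (x axis, bars show the SE), of each tested gene (y axis) of 5 pathway lists, by colour. Filled points are called. All 5 targets lie to the left of 0, and the antagonists lie on both sides, with Bmper at -4.94. Where 1 of the regions did not detect a gene, its difference is against background.

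Over the CNH stages, 4 of 6 ligands, 2 of 5 targets and 5 of 11 further antagonists were called, against the 15.2% of all genes given above. The 5 antagonists include Dand5 (adjusted p = 0.00817), which no CNH array detected, so its call lies within background and is not read, and 4 are left without it. Bmp7 was highest at E13.5 (range of fitted means 3.21, adjusted p = 9.88e-06), as were Bmp4 (2.67, adjusted p = 0.00279), Id3 (1.85, adjusted p = 0.00101), Id1 (1.15, adjusted p = 0.0108) and Bmp5 (2.18, adjusted p = 0.0403), which no stage detected on all its arrays. Nbl1 (adjusted p = 4.87e-05) and Sostdc1 (2.62e-05) were highest there too, from no detection at E9.5. The fitted level at E10.5 rests on the single NSB array that ties the batches, so the lowest stage is not named. The 3 called genes that remain beside Dand5 were not highest at E13.5. Lefty1 went from 7.53 and 7.67 at E9.5 to no detection at E13.5 (adjusted p = 1.74e-05). Nodal was detected on 1 of 2 arrays at E9.5, both at E10.5 and none later (adjusted p = 0.0187), and Lefty2 on 2 arrays each at E10.5, E11.5 and E12.5 but not at E9.5 or E13.5 (adjusted p = 0.00781). In the main fit, E13.5 was also the stage at which Bmp3 stood highest in the CNH. With cyclic loess its step from E12.5 to E13.5 turned to -0.12. The surface ectoderm, endothelium and posterior streak sums given above were highest at E13.5 too. The posterior streak sum was carried there by Bmp4, itself 1 of these pathway genes, and so is not separate from it. The part of these tissues in the values of the pathway genes was not tested.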

How the data were processed

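Of 45281 probes on 36 arrays, the values deposited by the authors are intensity, on a linear scale and not normalised. The deposited detection p-value of each probe sets it against the negative controls of its array. The submitters' processing notes name lumi; the scanner settings are not given in the sources used here.

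Log2 values were computed from the intensities with neqc (normexp background from the detection p-values, offset 16, quantile normalisation) of limma 3.58.1 in R 4.3.3. Tests took in the 21712 probes, of 15556 symbols, that any array detected at p under 0.01. A linear model with 16 regions and 3 batches left 18 residual degrees of freedom. Tests were limma's moderated tests over 18 contrasts and F tests over E8.5 regions and CNH stages, with p-values adjusted (Benjamini-Hochberg) per contrast across all those probes; pairwise tests took both directions. Calls needed an adjusted p of 0.05 or less and a difference of 1.5-fold or more. All contrasts come from the same model and many share arrays. Genes with several probes were represented by the brightest.

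Where a region detected a probe on no array, folds are lower bounds from the measured means, for which each array of that region was raised to its own lowest detected level where the probe lay below it. Named genes are the members, up to 3 called genes of each pathway list with the largest range over E8.5 regions and over CNH stages, the 3 most alike genes of each member, and cell type markers. The members and lists were chosen with earlier results of these data known. Symbols are those of the table, and all 7 members are in RefSeq GRCm38.p6. The code was tested on simulated data. Figures were drawn with matplotlib 3.10.9 in Python 3.11.15.

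Other settings were cyclic loess, an offset of 100, no background correction, no batch term, a ComBat-type adjustment written anew with regions as covariates, the BeadChip as a fixed or random block, another filter and none, a replicate block, fits within batches, and leaving out each array.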

Additional observations from a re-analysis of the deposited data

How the results depend on the processing

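Under 11 alternatives, the counts of antagonists called across the E8.5 regions (3 to 4), between RN and St5 (3 each time) and in steps along the axis (3 to 4) stayed within 1.5 times. Without NSB replicate 1 or 2 or St1 replicate 1 or 2 the count in steps was 2, and over the other omissions it was up to 4. With no batch term, the count was 1 across CNH stages and 1 between consecutive stages, and within batches it was 1 between consecutive stages. With the ComBat-type adjustment it was 3 across CNH stages and 3 between consecutive stages. In limma that adjustment also called Bmp3 from NSB to E9.5 CNH (-0.9, adjusted p = 0.0142), where neither region detected it. NSB against E10.5 CNH gave 2 with cyclic loess, 3 within batch 1, and 1 to 2 when an array was left out. CNH against P-CNH gave 1 with the BeadChip as a fixed block and 1 within batches. The E7.5 count was 1 with the BeadChip as a fixed block, 1 within batches, 3 with cyclic loess, and 1 to 2 when an array was left out. Of the calls of single members, only Bmp3 from E12.5 to E13.5 reversed, to -0.12 with cyclic loess. The log2 difference of RN and St5 ranged over these settings from 2.96 to 3.53 for Chrd, 2.21 to 3.61 for Nog and 1.05 to 2.72 for Bmp3, that of NSB minus RN for Bmp3 from -2.27 to -0.95, that of St1 minus NSB for Nog from -2.8 to -1.79, and that of Fst against NSB from -7.74 to -3.28 for E9.5 CNH and from -5.77 to -4.38 for E10.5 CNH. The cause was not tested in any of these.

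Without NSB replicate 3, the contrasts between batch 1 and the others could not be fitted. In the main model the differences of NSB from CLE and from E9.5 CNH rest on that array alone, for every gene. Within batches, the E8.5 count leaves out CLE and the CNH count leaves out E10.5, and steps across batches have no value. A region left with a single array is assumed to vary like the others.

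Whether arrays with the same replicate number deviate together cannot be told from the residuals, since those of a region with 2 arrays mirror each other. Their residual correlations in a batch ran from -0.715 to 0.612, and 18 of 36 arrays correlated best with an array of their own number. In batch 1 the replicate number is also that of the BeadChip. With the BeadChip as a random block and no batch term, the correlation within a BeadChip was 0.483. With the replicate block beside batch, the counts were 4 across E8.5 regions, 3 between RN and St5, 4 in steps, 2 across CNH stages, 3 between consecutive stages (Chrd from NSB to E9.5 CNH added, -2.84, adjusted p = 0.02), 1 for NSB against E10.5 CNH, 0 for CNH against P-CNH and 2 at E7.5.

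The number of arrays, and a signal over background down to 2.28 on those outside batch 1, limit what the regions measured there can show, with the lowest values in CLE (2.28) and E13.5 CNH (2.33). The model shares 1 spread over batches that differ in theirs, as the fits within batch 1 show.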
